A study of Homo sapiens with 14 samples.

Results

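Class 3 semaphorins are the secreted members of the semaphorin family, and 6 of them were followed here together with 2 neuropilins and 2 plexins, the receptors through which they act. The 10 genes (SEMA3A, SEMA3B, SEMA3C, SEMA3D, SEMA3E, SEMA3F, NRP1, NRP2, PLXNA1 and PLXND1) were taken by symbol from 2 gene expression tables, one of 24199 genes for DU145 cells and one of 44591 genes for LNCaP cells. The list was selected on measured values, since it was drawn up with the outcome of both comparisons known, so the differences of these genes between groups are given as a description, without p-values. In DU145, 6 of the 10 passed a filter on low values (a mean of at least 0.5 FPKM, a fragment count scaled to transcript length and library size), as did 13574 features in all. In LNCaP, 7 of the 10 reached a mean of 1 CPM (counts scaled to the library total), as did 14767 genes in all.

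LNCaP is an androgen-sensitive human prostate cancer line, and DU145 is an androgen-independent human prostate cancer line. The study asked about PAX6, a developmental transcription factor, in the shift of prostate cancer cells towards a neuroendocrine phenotype. The DU145 groups were 3 libraries of cells with a control short hairpin RNA (shCON) and 3 of cells with a hairpin against PAX6 (shPAX6), both stable puromycin-selected lines made with lentivirus; the labels do not say which PAX6 hairpin was sequenced. The LNCaP groups were 1 library of parental cells and 1 of LNCaP-ENZ cells, which had been exposed to enzalutamide, a drug used against prostate cancer, for 30 days and were kept in 20 µM of it. Nothing states that the 3 libraries of a DU145 group came from separate cultures, so the spread between them may be technical.

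Class 3 semaphorins were first known as guidance cues that turn growing axons away. Most of them bind a neuropilin, which has only a short intracellular tail, and the neuropilin hands the signal to a plexin, whose intracellular domain acts on small GTPases and through them on the cytoskeleton and on integrin adhesion. SEMA3E is the exception among the ligands studied, since it can bind PLXND1 directly. Neuropilins are also co-receptors for vascular endothelial growth factors. In tumours, SEMA3B and SEMA3F are known as candidate tumour suppressors on the short arm of chromosome 3, whereas SEMA3C has been linked to growth of prostate cancer.

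The sequences upstream of SEMA3F, SEMA3B and SEMA3E are shown because SEMA3F and SEMA3B lie next to each other on chromosome 3 and were both lower in shPAX6 cells, and because SEMA3E had the widest gap in LNCaP. The sequences are from RefSeq, build GRCh38, cut to the bases before an annotated start site that lie in no exon of a protein-coding gene. They are written 5′ to 3′ on the strand of the gene. Capitals mark matches, on either strand and overlapping ones included, to 3 motifs: TTCNNNGAA (the palindrome that STAT5 binds), TTCACGC (a core of PAX6 paired-domain sites) and GGGCGG (the GC box). The SEMA3F stretch is chr3:50154808-50155044 on the plus strand, the SEMA3B stretch is chr3:50267402-50267557 on the plus strand and the SEMA3E stretch is chr7:83649140-83649389 on the minus strand.
SEMA3F: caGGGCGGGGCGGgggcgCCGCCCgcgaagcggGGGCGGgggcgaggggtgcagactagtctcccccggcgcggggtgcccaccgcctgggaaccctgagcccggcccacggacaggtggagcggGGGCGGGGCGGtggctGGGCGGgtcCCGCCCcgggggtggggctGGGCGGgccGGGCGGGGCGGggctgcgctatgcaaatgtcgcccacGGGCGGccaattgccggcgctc
SEMA3B: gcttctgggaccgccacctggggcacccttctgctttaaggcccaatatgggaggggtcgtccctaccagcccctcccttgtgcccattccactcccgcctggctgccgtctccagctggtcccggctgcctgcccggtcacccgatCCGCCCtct
SEMA3E: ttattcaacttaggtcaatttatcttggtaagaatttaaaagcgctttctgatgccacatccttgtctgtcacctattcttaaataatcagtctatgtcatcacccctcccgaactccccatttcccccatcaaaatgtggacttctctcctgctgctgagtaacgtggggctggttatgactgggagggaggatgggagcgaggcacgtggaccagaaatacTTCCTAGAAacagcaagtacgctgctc

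The SEMA3F stretch of 237 bases was 81.9% G or C and held 12 GC boxes, against 1 GC box in the 156 bases of SEMA3B, which were 67.9% G or C. The start sites of these stretches lie 266 bases (SEMA3F) and 1495 bases (SEMA3B) from the canonical start of the gene, since the start site with the longest run of bases outside exons was shown, among those within 2 kb of the canonical start. Of the 5 SEMA3B windows in the table, 2 overlapping ones, 3971 and 4001 bases from the canonical start, held the PAX6 core. The 250 bases of SEMA3E were 46.4% G or C and held no GC box and 1 STAT5-type match. Among all 35116 promoter windows of the reference, each running from 250 bases before to 50 bases after a start site, 45.0% held a GC box, 7.66% a STAT5-type palindrome and 1.34% the PAX6 core. In the whole windows nearest to the canonical starts, SEMA3F held 2 GC boxes and SEMA3B 1. The whole windows of the start sites shown above held 12 and 4, so these counts depend on the start site and the length taken. A match is a stretch of letters and not a measured binding site. For 8 of the 10 genes the reference held at least 1 window; SEMA3A and NRP1 had none in the table.

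PAX6 itself, the target of the hairpin, was at 0.839, 1.23 and 1.57 FPKM in the shCON libraries and at 0.0153, 0.274 and 0.0778 FPKM in the shPAX6 libraries 1, 2 and 3. The groups did not overlap, and the log2 fold change of −2.69 (SE 0.49) had an adjusted p of 0.0539 (limma, Benjamini-Hochberg). The FPKM values summed to 470857 to 485479 in the shCON libraries and to 448901 to 570790 in the shPAX6 libraries, and shPAX6 library 1 had the highest sum and the fewest features above 0 (17170, against 17926 to 18301 in the others). The depth of the DU145 libraries is unknown, since their table holds no counts. All 4 epithelial markers (EPCAM, KRT8, KRT18 and CDH1) were at 1 FPKM or more in every shCON library and 3 of the 4 in every shPAX6 library, with CDH1 at 5.23 to 6.91 FPKM in shCON and at 0.654, 1.56 and 1.57 FPKM in shPAX6, while the prostate luminal markers KLK2, FOLH1, HOXB13 and TMPRSS2 were at 0 in all 6. In LNCaP, all 7 luminal markers reached 1 TPM (transcript abundance scaled to gene length and library total) in both libraries. Markers of other cell types were low in DU145, where the summed levels were at most 0.828 FPKM for 6 fibroblast genes, 0.137 FPKM for 5 endothelial genes, 2.07 FPKM for 5 leukocyte genes and 2.07 FPKM for 5 neural genes. In LNCaP the fibroblast sum was 4.25 TPM in parental and 2.68 TPM in ENZ cells, and the endothelial sum 2.03 and 0.349 TPM. The endothelial sum was mostly VWF, with 345 and 27 counts, while KDR had 0 and 16 counts and CDH5 and TEK had none. In the fibroblast sum COL1A1 had 456 and 231 counts and PDGFRB 36 and 57, with COL1A2, COL3A1, DCN and LUM at 0. Their part in the LNCaP differences was not tested.

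Among the DU145 ligands, SEMA3F and SEMA3B were lower in all 3 shPAX6 libraries than in any shCON library, SEMA3C varied widely within the shPAX6 group, and SEMA3A, SEMA3D and SEMA3E were barely detected. SEMA3F, which prefers NRP2 among the neuropilins, was at 3.31, 3.47 and 4.02 FPKM in shCON and at 1.00, 1.25 and 0.984 FPKM in shPAX6. The means were 3.60 ± 0.377 and 1.08 ± 0.149 FPKM (SD, n = 3 each), a 3.34-fold lower level with the knockdown, and the log2 fold change on the log2(FPKM + 0.1) scale was −1.65 (SE 0.21). SEMA3B was at 1.56, 2.05 and 2.62 FPKM in shCON and at 0.658, 0.714 and 0.775 FPKM in shPAX6, that is 2.08 ± 0.533 against 0.716 ± 0.0583 FPKM (SD, n = 3 each). Its log2 fold change was −1.39 (SE 0.27). For both genes every shPAX6 library sat well below the lowest shCON library, and the 3 shPAX6 values of SEMA3B lay close together.

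SEMA3C was the most abundant of the 10 genes in both DU145 groups. Its level was 18.3, 13.8 and 17.9 FPKM in shCON and 9.15, 35.2 and 18.5 FPKM in shPAX6, so the shPAX6 group held both the lowest and the highest library. The means of 16.7 ± 2.48 and 21.0 ± 13.2 FPKM (SD, n = 3 each) differed by less than this spread, with a log2 fold change of 0.13 (SE 0.44). The log2 SD of SEMA3C among the shPAX6 libraries, 0.97, was larger than that of 95.7% of the features past the filter or equal to it. The sign of its fold change depended on single libraries, since it was 0.62 without shPAX6 library 1 and −0.34 without shPAX6 library 2.

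The 3 scarce ligands stayed under the filter in DU145. SEMA3E was at 0.0245, 0.0236 and 0.0317 FPKM in shCON and at 0.170, 0.308 and 0.305 FPKM in shPAX6, and the means of 0.0266 ± 0.00446 and 0.261 ± 0.0787 FPKM (SD, n = 3 each) stood in a ratio of 9.81. SEMA3D, another repulsive cue, was at 0.0074, 0.0144 and 0.0213 FPKM in shCON and at 0.0308, 0.0541 and 0.0892 FPKM in shPAX6. For both genes the groups did not overlap, but every value was below 0.5 FPKM, where the ratio of an FPKM estimate rests on very little signal. How often the groups of other features under the filter lie apart in this way was not tested. Tested features within 2 percentage points of their transcript GC content had median log2 fold changes of 0.0596 (SEMA3D) and 0.0467 (SEMA3E). The median over all tested features was −0.12. SEMA3A, the prototype of the class and a collapsing factor for axon growth cones, was at 0.106, 0.0723 and 0.236 FPKM in shCON and at 0.127, 0.210 and 0.105 FPKM in shPAX6, and its groups overlapped.

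On the receptor side, NRP1 and PLXNA1 overlapped between the groups and PLXND1 did not. NRP1, the neuropilin that SEMA3A binds, was at 11.8, 9.11 and 14.2 FPKM in shCON and at 7.80, 13.9 and 9.99 FPKM in shPAX6, with a log2 fold change of −0.16 (SE 0.26). NRP2 was scarce, at 0.186, 0.0849 and 0.0424 FPKM in shCON and at 0.106, 0.484 and 0.134 FPKM in shPAX6, and it did not pass the filter. NRP1 therefore made up at least 96.6% of the summed neuropilin FPKM in every DU145 library. PLXNA1, a signalling partner of both neuropilins, was at 7.84, 6.93 and 9.48 FPKM in shCON and at 3.83, 9.28 and 6.35 FPKM in shPAX6, with a log2 fold change of −0.39 (SE 0.32). PLXND1, the receptor of SEMA3E, was at 3.07, 2.82 and 3.56 FPKM in shCON and at 1.42, 2.55 and 1.73 FPKM in shPAX6. Its highest shPAX6 library stayed just below its lowest shCON library, and the log2 fold change was −0.73 (SE 0.26).

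**Figure D1:**
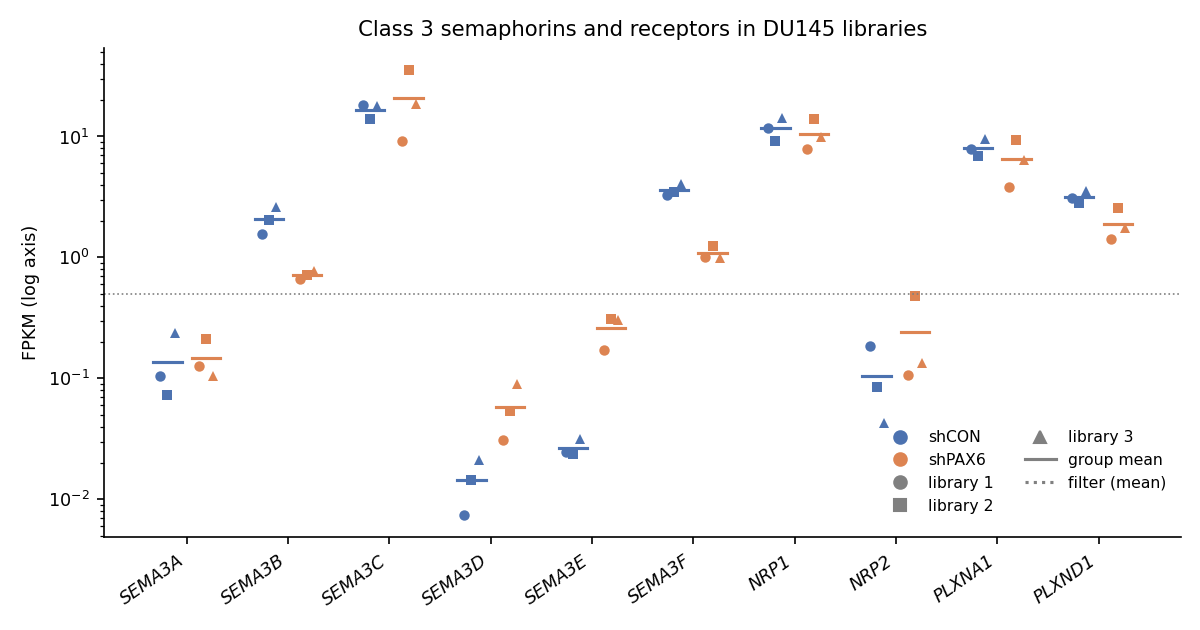
FPKM (log axis) of the 10 genes in the 3 shCON and 3 shPAX6 libraries of DU145; symbols give the library number, bars the group means and the dotted line the filter on the mean. SEMA3F and SEMA3B separate downwards, SEMA3D and SEMA3E separate upwards at levels under the filter, and SEMA3C spreads from 9.15 to 35.2 FPKM within shPAX6.

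In the limma fit over all features, at a Benjamini-Hochberg adjusted p under 0.05, 1 of the 6 genes past the filter was called lower in shPAX6, SEMA3F, beside 1.02% of all features, and none was called higher, beside 0.177%. Without the adjustment, 3 of the 6 were under 0.05, beside 18.3% of all features. Groups that did not overlap, with shPAX6 lower, were found for 3 of the 6 genes (SEMA3F, SEMA3B and PLXND1) and for 20.0% of all features; with shPAX6 higher they were found for none of the 6 and for 6.70% of all features. Nothing is read from these counts, because the list was drawn up with this contrast known. The call count was 0 without any one of shCON libraries 1, 2 and 3 or shPAX6 library 3 (2 or 3 of the 6 were then under 0.05 unadjusted), 2 without shPAX6 library 1 and 3 without shPAX6 library 2, when SEMA3B and PLXND1 were called too. These counts moved with the whole table: the 4 fits that called no member called 0, 5, 0 and 10 of the 13574 features, and the other leave-outs called 6.78% and 6.65% of them. Unadjusted, those 4 fits had 1617, 1399, 1258 and 1652 of the 13574 features under 0.05.

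Base composition and library order moved with some of these values. Over the 12009 tested features with a reference transcript (88.5%), the log2 fold change was lower at higher transcript GC content, with a Spearman correlation across genes of −0.36, which is a description since genes are not independent. Transcripts of SEMA3B and SEMA3F were 64.8% and 61.7% G or C, and features within 2 percentage points of them had median log2 fold changes of −0.32 and −0.32, against −0.12 over all features. After a GC correction in each library, the log2 fold change was −1.46 for SEMA3F and −1.15 for SEMA3B. With it limma called none of the 6 genes, beside 0.869% of all features. Unadjusted, 2 of the 6 were under 0.05, beside 2368 of the 13574 features. In 4 of the 6 genes (SEMA3C, NRP1, PLXNA1 and PLXND1) the shPAX6 libraries ran from library 1, the lowest, through 3 to 2. That order was shared by 46.8% of all features. SEMA3F and SEMA3B did not follow it. The part of these patterns in the differences was otherwise not tested.

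In shCON cells the mean levels ran from SEMA3C through NRP1, PLXNA1, SEMA3F, PLXND1 and SEMA3B down to SEMA3A, NRP2, SEMA3E and SEMA3D. The ranges of neighbours overlapped for SEMA3C and NRP1, for NRP1 and PLXNA1, for SEMA3F and PLXND1, and for SEMA3A and NRP2. In shPAX6 cells the first 3 places were the same and PLXND1 stood above SEMA3F.

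With SEMA3F and SEMA3B lower, SEMA3C took a larger share of the class 3 ligand transcripts in shPAX6 cells. SEMA3C accounted for 70.9 to 78.0% of the summed FPKM of the 7 class 3 semaphorins (SEMA3G included) in the shCON libraries and for 81.4 to 93.2% in the shPAX6 libraries. SEMA3F accounted for 14.1 to 17.8% and 3.31 to 8.92%, and SEMA3B for 6.63 to 10.5% and 1.89 to 5.86%. None of these 3 shares overlapped between the groups, although the summed level did, at 19.5 to 24.9 FPKM in shCON and 11.2 to 37.8 FPKM in shPAX6. The shares were set by the same values as the levels above and are no separate evidence.

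**Figure D2:**
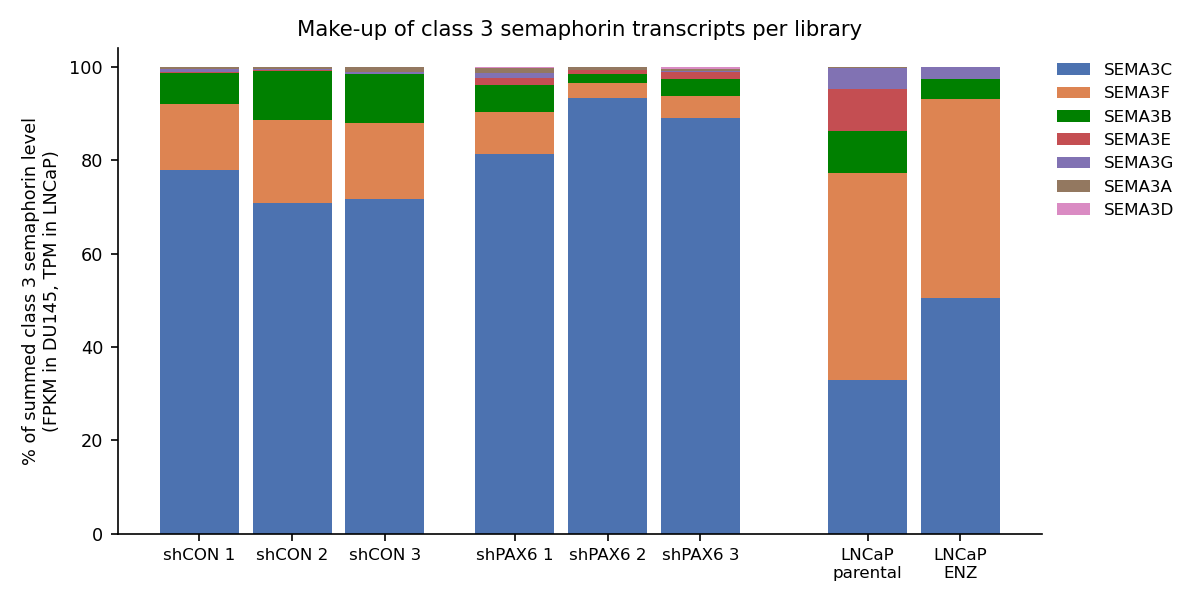
Percentage of the summed class 3 semaphorin level taken by each ligand in each library (FPKM in DU145, TPM in LNCaP). SEMA3C takes 81.4 to 93.2% in shPAX6 libraries against 70.9 to 78.0% in shCON libraries, and LNCaP differs from DU145 in its large SEMA3F share.

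SEMA3F and SEMA3B lie on the plus strand of chromosome 3, with starts 112.5 kb apart (50192478 and 50304990 in GRCh37), and a single tested gene lies between them. That gene, GNAI2, which encodes an inhibitory G protein alpha subunit, was at 146, 154 and 156 FPKM in shCON and at 83.3, 83.7 and 93.1 FPKM in shPAX6. It fell with the knockdown, with a log2 fold change of −0.81 (SE 0.12) and an adjusted p of 0.0320 (limma, Benjamini-Hochberg). The call was lost with median centring (log2 fold change −0.64, adjusted p 0.152), with the GC correction (−0.69, adjusted p 0.0574) and without a trend in limma. These fits called 0.737%, 0.869% and 1.47% of all features. It was also lost with the replicate block, which called no feature, and without any 1 of the shCON libraries or shPAX6 library 3. In those leave-outs the limma adjusted p lay between 0.156 and 0.255 and the log2 fold change between −0.86 and −0.79. They called 0, 5, 0 and 10 of the 13574 features. The genes on either side did not pass the test. RBM5, the nearest tested gene before SEMA3F, encodes a splicing factor and had a log2 fold change of −0.0051 (SE 0.14), and RBM6 and MON1A beyond it had 0.14 and 0.13. IFRD2, the nearest tested gene after SEMA3B, had −0.072 (SE 0.14), and NAA80 had −0.28. HYAL3, a hyaluronidase family gene, was at 16.0, 19.1 and 18.4 FPKM in shCON and at 20.5, 20.2 and 21.2 FPKM in shPAX6, where its groups lay apart in the other direction. SEMA3F-AS1 on the opposite strand shares 1041 bases with the span of SEMA3F and SEMA3B-AS1 shares 7 bases with that of SEMA3B, and the counting of strand is not given in the sources used here, so reads of these partners cannot be told apart. The span of SEMA3F also holds MIR566. Opposite-strand transcripts overlap NRP2 over 7538 bases and NRP1 over 2528 bases.

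**Figure D3:**
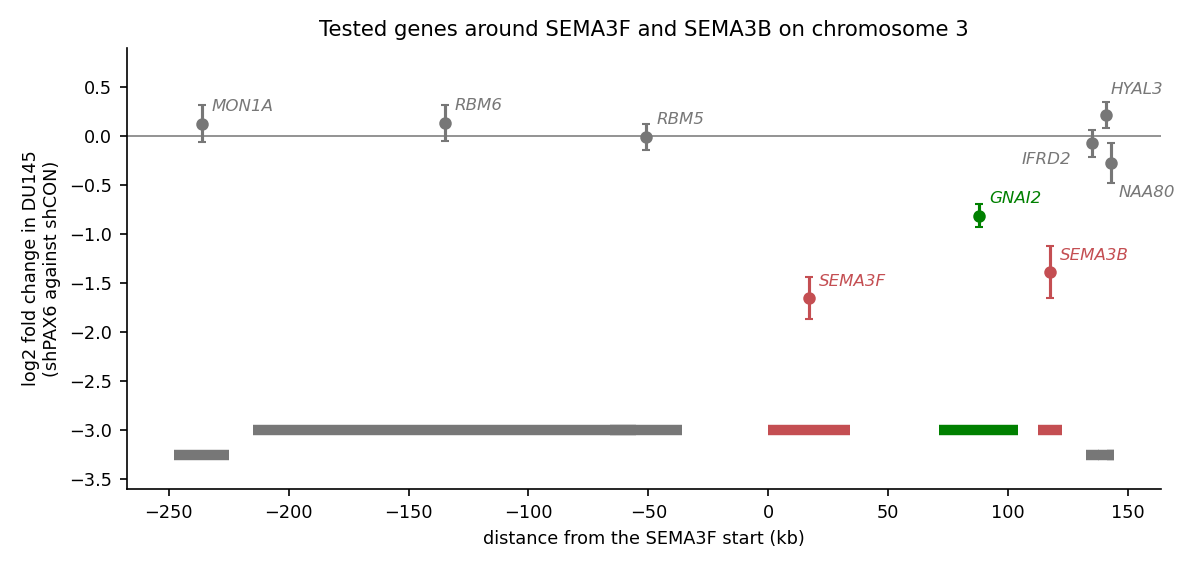
Log2 fold change in DU145 (shPAX6 against shCON; points with SE bars) of tested genes against distance from the SEMA3F start in kb, with gene spans drawn below (upper row plus strand, lower row minus strand). SEMA3F, GNAI2 and SEMA3B are at −1.65, −0.81 and −1.39, while the 6 genes around them lie between −0.28 and 0.21.

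The other genes of the pathway were taken as 5 lists with 72 genes, of which 51 passed the filter in DU145. Of these, 1 fell and none rose at an adjusted p under 0.05 (limma, Benjamini-Hochberg), beside 1.02% and 0.177% of all features. Negative log2 fold changes were found for 37 of the 51, beside 62.9% of all features, and the median was −0.35, against −0.12 over all features. Without the adjustment, 14 of the 51 were under 0.05, beside 18.3% of all features. After the GC correction 6 of the 51 were, beside 2368 of the 13574 features. The gene that fell was SEMA6B, a transmembrane semaphorin, at 5.95, 6.37 and 7.23 FPKM in shCON and at 1.90, 2.21 and 2.33 FPKM in shPAX6 (log2 fold change −1.56, SE 0.18, adjusted p 0.0198 in limma with Benjamini-Hochberg adjustment). Its values were close to those of SEMA3F in fold, with no overlap between the groups. Its transcript was 69.7% G or C. The call was lost with the GC correction and with the replicate block. It was also lost without any one of the shCON libraries or shPAX6 library 3, fits that called 0 to 10 features in the whole table, while 3 pathway genes were called without shPAX6 library 1 and 7 without shPAX6 library 2, beside 6.78% and 6.65% of all features.

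The counts of negative values by list stand beside 62.9% of all features, and beside 81.1% of the features within 2 percentage points of the GC content of SEMA3F. By list, 8 of 13 semaphorins of other classes passed the filter and 7 of the 8 had negative values. SEMA6C, a relative of SEMA6B, had a log2 fold change of −1.15, and SEMA7A, a membrane-anchored semaphorin, was the positive one at 0.13. Of SEMA3G and the other plexins, 3 of 8 passed and all 3 were negative, with PLXNB1 at −1.01 and PLXNB2, which made up 67.5 to 76.3% of the plexin FPKM in these cells, at −0.72. Of the proteases that process semaphorins, 5 of 7 passed and all 5 were negative, led by the proprotein convertase PCSK6 at −1.21 (SE 0.27). Next came the sheddase ADAM17 at −0.55 (SE 0.50). The groups overlapped for ADAM17, FURIN and ADAM10 (−0.079, SE 0.35), and did not for PCSK6 and PCSK7 (−0.13, SE 0.12). Of the other neuropilin ligands and co-receptors, 7 of 14 passed, with VEGFA at −0.61, the VEGF family receptor FLT4 at −0.51, the growth factor PGF at 0.30 and the adhesion molecule L1CAM at 0.26. Of the signalling genes below plexins, 28 of 30 passed, with the Rac exchange factor TIAM1 at −0.84 and the exchange factor ARHGEF12 at −0.74. The kinase FYN was at 0.61 and the small GTPase RAP1A at 0.52. ARHGEF12 (SE 0.88) was at 1.81, 30.1 and 14.0 FPKM in shPAX6 libraries 1, 2 and 3 and at 12.9 to 17.0 FPKM in shCON. The groups overlapped for ARHGEF12, TIAM1 and RAP1A, and did not for FYN. None of these other named genes passed the test.

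In LNCaP, SEMA3E was close to undetected in the enzalutamide-exposed cells, PLXND1 and NRP1 were lower, and SEMA3C and SEMA3F were higher. These are single libraries of 20468001 (parental) and 17945722 (ENZ) counts, so no difference has a replicate check. The methods speak of replicates for each line while the labels and the table give 1 library per LNCaP group, and whether a column is a pool is not stated. The 95% intervals given are exact (Clopper-Pearson) ones that cover counting error only. Log2 ratios are of CPM + 0.1, and their median over all 14767 genes was −0.15.

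SEMA3E had 339 counts in parental and 2 counts in ENZ cells, that is 2.57 and 0.0163 TPM. The log2 ratio was −6.30 (−10.27 to −5.35), and the ratio of the CPM values, parental over ENZ, was 149 (40.8 to 1232). No gene past the filter had a lower log2 ratio than SEMA3E, also with TMM factors or DESeq2 size factors; with a pseudocount of 0.01 there was 1 such gene, with a pseudocount of 1 there were 2 and on TPM there were 3. In parental cells SEMA3E was at the level of SEMA3B per length, 2.57 against 2.55 TPM. PLXND1, its receptor, had 772 and 305 counts, 5.64 and 2.40 TPM, with a log2 ratio of −1.15 (−1.35 to −0.96), which became −0.97 with DESeq2 size factors and then fell short of a 2-fold difference.

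SEMA3C had 947 and 1871 counts, 9.33 and 19.8 TPM, with a log2 ratio of 1.17 (1.06 to 1.29). SEMA3F had 954 and 1185 counts, 12.5 and 16.7 TPM, with a log2 ratio of 0.50 (0.38 to 0.63). SEMA3B had 168 and 102 counts, 2.55 and 1.66 TPM, with a log2 ratio of −0.52 (−0.90 to −0.17). These 3 ligands stood on both sides of the median of all genes. SEMA3A had 5 and 1 counts, a CPM ratio of parental over ENZ of 4.38 (0.491 to 207), and SEMA3D had 0 counts in both libraries, which at 3 counts allows up to 0.147 CPM in parental and 0.167 CPM in ENZ cells; the upper ends of the exact 95% Poisson intervals were 0.180 and 0.206 CPM.

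Among the receptors, NRP1 had 605 and 325 counts, 5.22 and 3.01 TPM, with a log2 ratio of −0.70 (−0.91 to −0.51). PLXNA1 had 1876 and 1481 counts, 10.6 and 8.95 TPM; its log2 ratio of −0.15 (−0.25 to −0.05) was close to the median of all genes and became 0.02 with DESeq2 size factors. NRP2 had 2 and 8 counts, a CPM ratio of parental over ENZ of 0.219 (0.0227 to 1.10). NRP1 was therefore the only abundant neuropilin in LNCaP as in DU145.

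**Figure D4:**
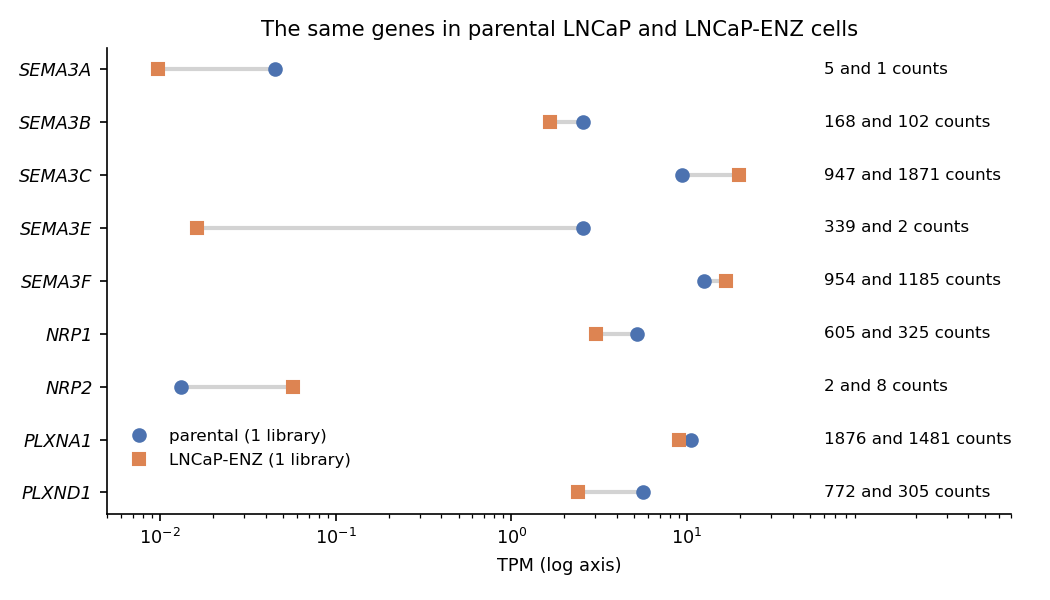
TPM (log axis) of 9 of the 10 genes in the parental and the LNCaP-ENZ library, with the counts of each at the right; SEMA3D had 0 counts in both. SEMA3E is at 2.57 and 0.0163 TPM, SEMA3C at 9.33 and 19.8 TPM, and SEMA3A and NRP2 rest on 1 to 8 counts.

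At least 2-fold differences were found for 1 of the 7 genes past the filter in the higher direction (SEMA3C), beside 1.84% of all genes past the filter, and for 2 of 7 in the lower direction (SEMA3E and PLXND1), beside 9.57%. The list was drawn up with this contrast known too, so nothing is read from the counts. In shares of the summed class 3 TPM, SEMA3F took 44.2% in parental and 42.5% in ENZ cells, SEMA3C 33.0% and 50.5%, SEMA3E 9.08% and 0.0415%, and SEMA3B 9.0% and 4.24%. SEMA3C and SEMA3F together thus made up most of the ligand transcripts in both libraries. SEMA3E, SEMA3A, SEMA3C and SEMA3D lie within 4.38 Mb of chromosome 7, and of these neighbours SEMA3C was higher and SEMA3E lower in ENZ cells.

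**Figure D5:**
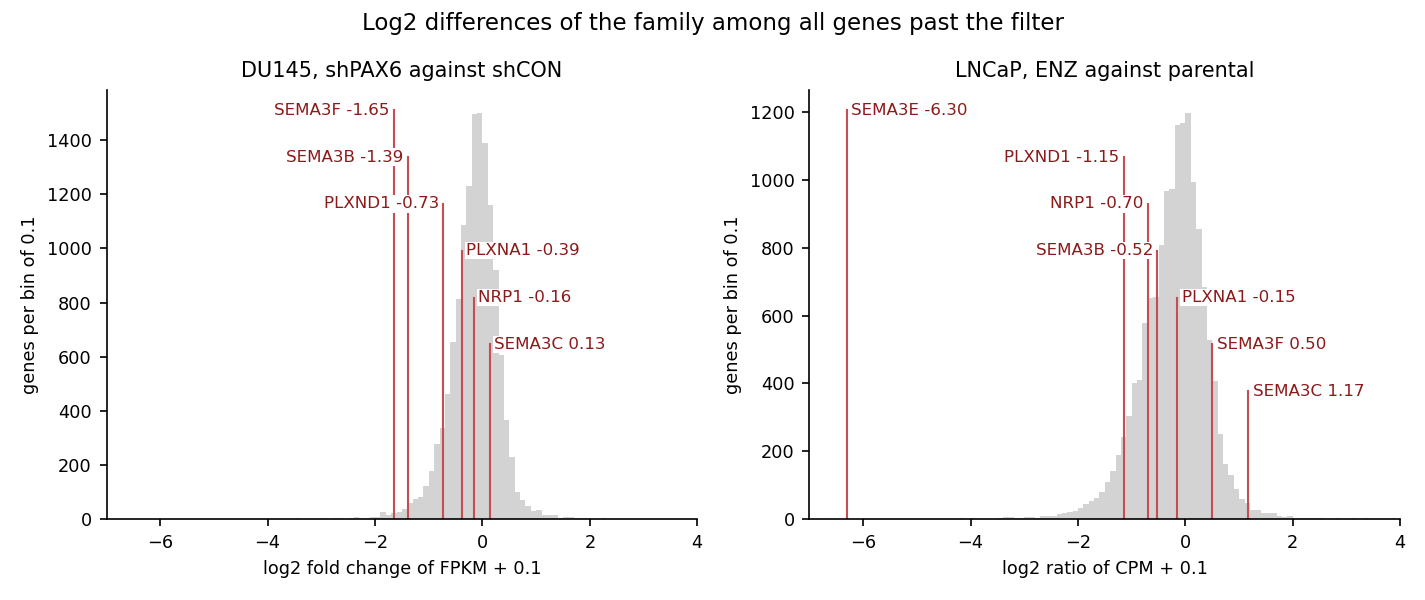
Histograms of log2 differences over all genes past the filter (grey), with the genes of the family past it drawn as red lines: 6 in DU145 (left) and 7 in LNCaP (right). SEMA3F and SEMA3B lie in the lower tail in DU145, and SEMA3E at −6.30 lies at the far end in LNCaP.

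Of the 72 pathway genes, 57 passed the filter in LNCaP; 10 of them were at least 2-fold lower in ENZ cells (7 with DESeq2 size factors), beside 9.57% of all genes, and none at least 2-fold higher, beside 1.84%. The median log2 ratio was −0.21, against −0.15 over all genes. The widest gap was that of the matrix protease ADAMTS1, which had 1922 counts in parental and 195 in ENZ cells, giving a log2 ratio of −3.10 (−3.33 to −2.90), followed among the proteases by ADAM10 at −1.17, while PCSK6 and PCSK7 were at 0.22 and 0.17. The 8 neuropilin ligands and co-receptors past the filter had log2 ratios from −2.61 to −0.09, beside 62.3% of all genes with a negative ratio. The counting intervals of 3 of the 8 (PGF, MET and CNTN2) included 0. The lowest were L1CAM with 108 and 14 counts (−2.61) and HGF, the ligand of MET, with 123 and 30 counts (−1.79). KDR of the same list, under the filter with 0 and 16 counts, was higher in ENZ cells (3.31). Of the signalling genes, FYN had 55 and 8 counts (−2.35) and the collapsin response mediator DPYSL4 344 and 58 counts (−2.34), whereas CRMP1, of the same family as DPYSL4, was at 0.67 and the kinase PAK1 at 0.66. Among other semaphorins, SEMA6C was at −1.30, SEMA6B at −0.62, SEMA4F at 0.36 and SEMA4A at 0.27, and among the other plexins PLXNB3 was at −0.77 and PLXNA3 at −0.38. PAX6 had 11 and 4 counts in these libraries and did not pass the filter. Of the genes next to SEMA3F and SEMA3B, GNAI2 had 1194 and 935 counts (−0.16), RBM5 614 and 505 counts (−0.09), and IFRD2 698 and 868 counts (0.50).

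The cell lines were sequenced and quantified in separate tables, so their levels are set side by side without a test. SEMA3F was lower in shPAX6 than in shCON cells (log2 fold change −1.65) and higher in LNCaP-ENZ than in parental cells (log2 ratio 0.50). SEMA3B was lower in both comparisons, at −1.39 and −0.52, as was PLXND1, at −0.73 and −1.15. SEMA3E was scarce but higher with PAX6 knockdown in DU145 (0.0266 and 0.261 FPKM) and was 149 times lower by CPM in LNCaP-ENZ. SEMA3C was at a log2 fold change of 0.13 in DU145, within the spread of its libraries, and at a log2 ratio of 1.17 in LNCaP.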

How the data were processed

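RNA-seq tables of 8 libraries were used; 6 ATAC-seq samples were not analysed here. The authors aligned reads with HISAT2 to GRCh37 and quantified transcripts with StringTie, without naming a table. The header of the DU145 table names no unit; its deposited values were taken as FPKM, since they are fractional and sum to different totals. The deposited LNCaP table gives raw counts, TPM made by the authors from those counts, and gene lengths. Read counter, annotation and strand setting are not given in the sources used here.

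DU145 was tested with limma 3.58.1 (R 4.3.3; lmFit and eBayes with a trend) on log2(FPKM + 0.1), keeping features that averaged 0.5 FPKM or more, two-sided, with Benjamini-Hochberg adjustment over all 13574 and a threshold of 0.05. The script was tested on simulated data. LNCaP, with 1 library a group, was described by log2 ratios of CPM + 0.1 for genes with a mean of at least 1 CPM, without a test. TMM factors came from edgeR 4.0.16 and size factors from DESeq2 1.42.0, both as alternative scalings. Promoter windows were RefSeq sequences of GRCh38, placed on GRCh37 by exact match.

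The members and lists were chosen with earlier results of these data known. Named were all members, PAX6, the tested genes next to SEMA3F and SEMA3B, genes overlapping a member, pathway genes called by limma, and in each list and line the 2 largest differences in each direction; FIGF is listed as VEGFD. Replicate numbers were not used as pairs in the main fit.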

Additional observations from a re-analysis of the deposited data

How the results depend on the processing

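The 1 member called in DU145 became 2 without a trend in the limma fit, beside 1.47% of all features. The 1 pathway gene called became 2 with quantile normalization, beside 1.74% of all features. With the GC correction per library both counts were 0, beside 0.869% of all features. Unadjusted p-values under 0.05 (limma) then remained for 2 members and 6 pathway genes, beside 2368 of the 13574 features. With the replicate number as a block both counts were 0, also together with the GC correction, and no feature at all was called. Unadjusted p-values under 0.05 (limma with the block) were found for 2 members and 8 pathway genes, beside 1568 of the 13574 features. With the block and the GC correction they were found for 2 and 4, beside 1539 of the 13574. Same-numbered libraries did not deviate together (correlations of −0.17, −0.37 and 0.052). With 3 libraries a group, such correlations cannot settle whether the numbers pair the libraries. Leaving out 1 library gave 0 to 3 members and 0 to 7 pathway genes called, while the calls over all 13574 features ran from 0 (without shCON 1 or 3) to 920 (without shPAX6 1), against 163 with all libraries; the cause was not tested. In LNCaP the 3 members past 2-fold became 5 with no filter on low counts, which adds SEMA3A and NRP2 with at most 8 counts; with TMM or DESeq2 scaling there were 2.

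The log2 fold changes of SEMA3F, SEMA3B, PLXND1 and PLXNA1 in DU145 kept their sign under all 16 alternatives. They lay within −1.75 to −1.14 for SEMA3F and −1.57 to −0.83 for SEMA3B. SEMA3C kept its sign in 13 and NRP1 in 14. Many of these settings could not change a sign: the other filters, the fit without a trend and the replicate block alone left each log2 fold change as it was. Where the groups did not overlap (SEMA3F, SEMA3B and PLXND1), the pseudocounts and leaving out 1 library could not change it either. In LNCaP, over 5 alternatives, PLXNA1 kept its sign in 4 and the other 6 members in 5. The unknown depth of DU145 and the single LNCaP libraries limit what can be said of SEMA3A, SEMA3D and NRP2.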
